A study of Mus musculus with 24 samples.

Results

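The genes described here are the Slit, semaphorin, ephrin and netrin guidance genes: the ligands of these families and their Robo, plexin, neuropilin, Eph, Unc5 and *Dcc* receptors. They were picked out by a rule on the gene symbol, which took 74 of the 24411 genes listed. The 74 are 3 Slits, 4 Robo receptors, 7 class 3 semaphorins, 13 semaphorins of classes 4 to 7, 10 plexin genes, 2 neuropilins, 8 ephrins, 14 Eph receptors, 6 netrins and 7 netrin receptor genes. Of these, 3 match by the letters of their symbol and are neither ligand nor receptor of the families: *Unc50*, *Unc5cl* and *Plxna4os1*, a transcript antisense to *Plxna4*. A gene was tested in a comparison where its mean over the 6 libraries was at least 10 normalized counts, the value the authors deposited for each gene and library. With this minimum 61 of the 74 were tested in at least 1 pairwise comparison. The other 13 (*Efna1*, *Epha1*, *Epha6*, *Epha8*, *Epha10*, *Ntn5*, *Plxna4os1*, *Robo3*, *Robo4*, *Sema3g*, *Sema4f*, *Slit3* and *Unc5cl*) never reached it, and their highest library held between 1 read, for *Epha10* and *Unc5cl*, and 18 reads, for *Slit3*.

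Guidance genes were named for steering growing axons. Slits bind Robo receptors, secreted class 3 semaphorins act through neuropilins and plexins, membrane-bound semaphorins act on plexins directly, ephrins on a cell engage Eph receptor tyrosine kinases on its neighbour, and netrins attract through *Dcc* and repel through Unc5 receptors. In the brain, astrocytes and microglia make both ligands and receptors of these families, which are known from glial boundaries, vessels and immune cells as well as from axons.

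Cultured mouse astrocytes and microglia, each from wild type (WT) animals or from animals with the *SOD1* G93A transgene (SOD1 from here on), a human mutant SOD1 gene used as a model of amyotrophic lateral sclerosis, were sequenced as poly(A)-selected RNA. The design asks how each cell type responds to an inflammatory stimulus and whether the genotype changes the resting or the stimulated state. The 21 libraries used here form 7 groups of 3, and the 3 quiescent SOD1 microglia libraries of the 24 samples were not analysed here. Because the labels do not say whether the 3 libraries of a group came from separate cultures or animals, every p-value below measures the spread between libraries, which may be technical. For its counts of biological replicates the paper refers to a supplementary table, whose content is not used here.

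Astrocytes, labelled cortical, came from the forebrain of 5-day-old pups, purified by panning away microglia, endothelial and oligodendrocyte lineage cells and then binding the surface protein HepaCAM, and were grown in serum-free medium with the growth factor HBEGF. Quiescent WT and quiescent SOD1 astrocytes received saline. Activated WT and activated SOD1 astrocytes received C1q (400 ng/mL), TNFα (30 ng/mL) and IL-1α (3 ng/mL) together, which are factors made by activated microglia. Microglia were sorted by CD11b from the whole brain of pups 7 to 10 days old and grown in serum-free medium with TGF-β2, IL-34, cholesterol and heparan sulfate. Quiescent WT microglia received saline, and LPS-treated WT and SOD1 microglia received bacterial lipopolysaccharide (LPS) at 50 ng/mL. How long the cells were treated is not given in the sources used here. All groups are cultures of cells from young pups on a C57BL/6J background, taken before motor symptoms begin in this model, and the human transgene itself cannot be measured as such in counts of mouse genes.

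Library depth, recovered from the spacing of the low values, ran from 2016139 to 11570122 reads, with a median of 5098168. In WT astrocytes it was 2016139 to 9258718 reads when quiescent and 5047999 to 6768201 when activated. In SOD1 astrocytes it was 3292225 to 9526331 and 2135439 to 3929272. WT microglia held 2550560 to 10157188 quiescent and 4674300 to 8121620 with LPS, and LPS-treated SOD1 microglia 4042840 to 11570122. In 4 of the 7 groups 1 library stood apart from the others. The chi-square per gene between libraries of quiescent WT astrocytes was 9.45 and 6.82 for the pairs with replicate 3 and 2.08 for the other pair. For quiescent SOD1 astrocytes it was 6.77 and 10.4 for the pairs with replicate 1 against 2.88. With LPS, WT microglia gave 15 and 13.8 for the pairs with replicate 1 against 1.65, and SOD1 microglia gave 16.8 and 21.7 for the pairs with replicate 3 against 2.41. Counts of called members are given with and without these libraries, whereas overlaps, marker and pathway lists and levels use all libraries. No pair of libraries was alike enough to be duplicates.

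The labelled cell types could be read from their markers. In quiescent WT astrocytes the 10 astrocyte markers summed to 26593, 28994 and 34649.9 normalized counts, led by the glutamate transporter *Slc1a3*, and the 9 microglia markers to 559, 773 and 1056. In quiescent WT microglia the microglia markers summed to 41674, 45368 and 42339, led by *Csf1r*, and the astrocyte markers to 969, 892 and 969, led by *Gfap*. The astrocyte cultures also held oligodendrocyte lineage transcripts, with a 10-gene sum of 14788, 14617 and 14680.4 led by *Olig1*. Among vessel markers, *Cldn5* and *Tie1* were at 0 in every library of both WT comparisons. In bulk RNA, fewer cells of a type and less RNA per cell cannot be told apart.

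Levels of different genes were compared as RPKM, reads scaled by exon length and library depth (mean ± SD of 3 libraries). Plexin-B2, a receptor of class 4 semaphorins, was the most abundant guidance gene in the quiescent WT cells of both types. *Plxnb2* was at 70.3 ± 9.45 in quiescent WT astrocytes and 190.4 ± 0.944 in quiescent WT microglia. Behind it in astrocytes came membrane semaphorins and netrins. *Sema4b* was at 35.0 ± 2.38, *Sema6d* at 31.1 ± 1.06, *Ntn1* at 28.8 ± 2.43, *Sema6a* at 27.5 ± 1.87 and *Plxnb1* at 25.0 ± 2.06. Given these SDs, *Sema4b*, *Sema6d*, *Ntn1*, *Sema6a* and *Plxnb1* are near neighbours whose order is within a few SD. In microglia the semaphorin *Sema4d* was at 145 ± 6.63 and the neuropilins *Nrp1* and *Nrp2* at 110.1 ± 2.55 and 76.6 ± 5.32, each further from the next than the spread of 3 libraries. Then came *Plxnd1* at 19.7 ± 2.09, *Plxna1* at 19.4 ± 1.31 and *Epha2* at 18.4 ± 2.41, which lie within their SDs of each other or close to it. Slits, Robo receptors, class 3 semaphorins other than *Sema3c*, most ephrins and most Eph receptors had too few reads in microglia to be tested. The tables were normalized separately, so no difference in level between cell types was tested.

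**Figure D1:**
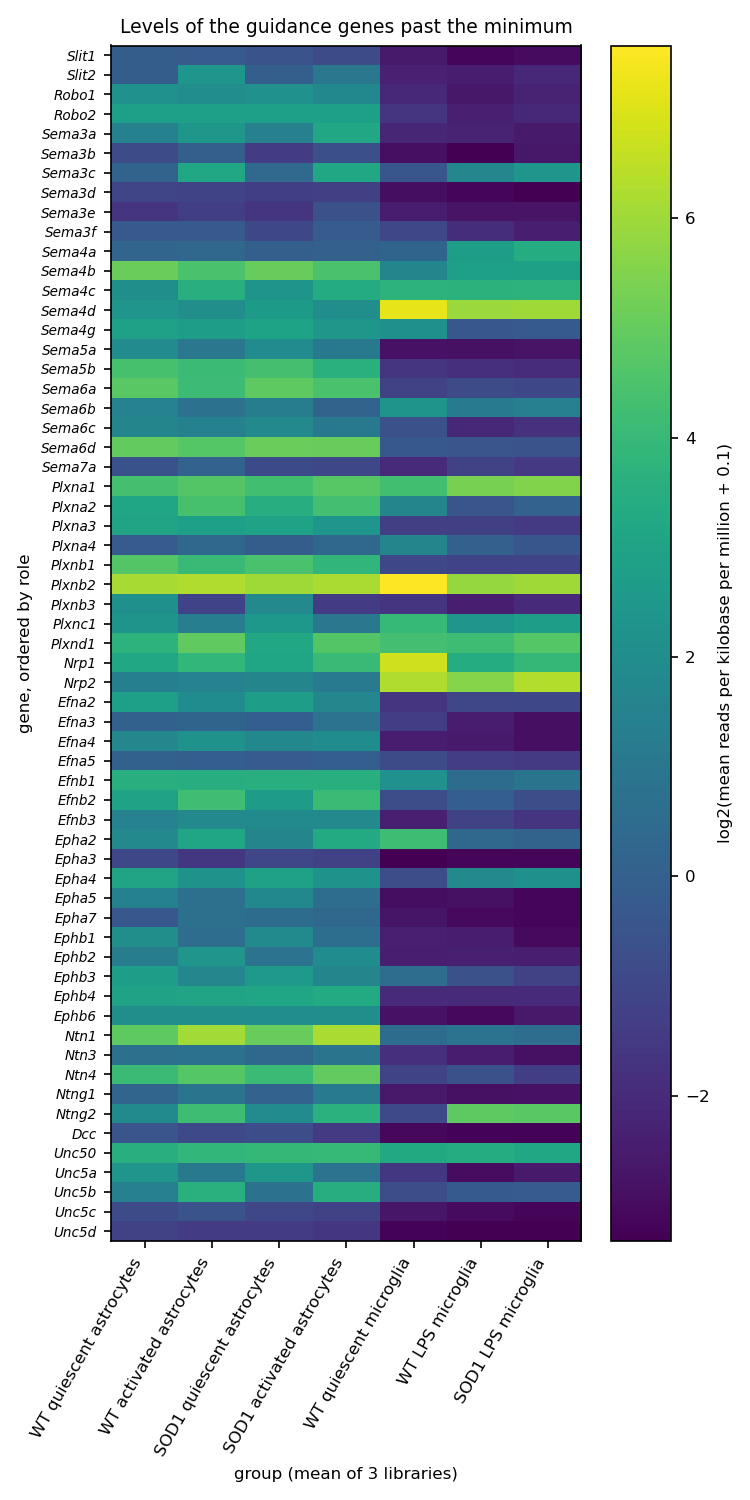
Heat map of log2(mean RPKM + 0.1) for the 61 guidance genes that reached the minimum, ordered by role (vertical axis), in the 7 groups (horizontal axis, mean of 3 libraries each). *Plxnb2* is bright in all groups, *Sema4d*, *Nrp1* and *Nrp2* in microglia, and the Slit, Robo and most Eph rows are dark in microglia.

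Exon sequence is shared with another annotated gene in 14 of the 74 members, 7 of them called in a comparison. On the same strand *Ntng2* overlaps another annotated transcript by up to 461 bases, *Plxnc1* overlaps Gm48718 by up to 115 bases, and *Nrp1* overlaps Mir1903 by 37 bases. On the opposite strand *Ephb1* overlaps Gm26846 (152 bases), *Plxna1* overlaps Gm26811 (191 bases), *Plxna4* overlaps Plxna4os3 (110 bases) and *Unc5a* overlaps Hk3 (34 bases). The other 7 are *Efna3*, *Efna4*, *Epha1*, *Ntn3*, *Ntn5*, *Plxnb1* and *Unc5c*. The library kit keeps the strand, but whether counting used it is not given in the sources used here, so reads from such partners cannot be told apart.

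The first pair of comparisons asks how WT and how SOD1 astrocytes respond to IL-1α, TNFα and C1q. Several secreted and membrane ligands and several receptors went up: *Sema3c*, *Slit2*, *Sema3a*, *Ntn1*, *Ntng2*, *Sema4c* and *Efnb2* among ligands, and *Unc5b*, *Plxnd1*, *Epha2* and *Ephb2* among receptors, all in both genotypes. Receptors made up the members that fell in both genotypes, namely *Plxnb3*, *Ephb1* and *Unc5a*. The largest rise was 8.93-fold for *Sema3c* in WT, and the largest falls were those of *Plxnb3*. A call here needs an adjusted p under 0.001 and more than a 2-fold difference, by limma on log2(normalized count + 1). The added 1 understates most fold changes of low genes, although a single library at 0 can enlarge them.

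In WT astrocytes 16 of 59 tested members were called (12 higher, 4 lower), where 11.5% of all 12336 tested genes were called (higher 6%, lower 5.54%). In SOD1 astrocytes 17 of 58 were called (12 higher, 5 lower), against 13.1% of 12255 genes (higher 6.74%, lower 6.36%). The median log2 fold change over the tested members was 0.04 in WT and 0.06 in SOD1, beside 0.01 and -0.00 over all genes. An unadjusted p under 0.05 was reached by 38 members in WT (64.4%, all genes 46.8%) and by 43 in SOD1 (74.1%, all genes 50.3%). Without quiescent WT replicate 3, which stands apart, 18 members were called (13 higher, 5 lower), among them all 16. Without quiescent SOD1 replicate 1 it was 18 (13 higher, 5 lower), with 16 of the 17, *Ntng1* being lost. Below, libraries are listed as replicates 1, 2 and 3. WT values are on the scale of the WT table and SOD1 values on a scale set over all 12 astrocyte libraries, so levels are compared within a genotype.

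**Figure D2:**
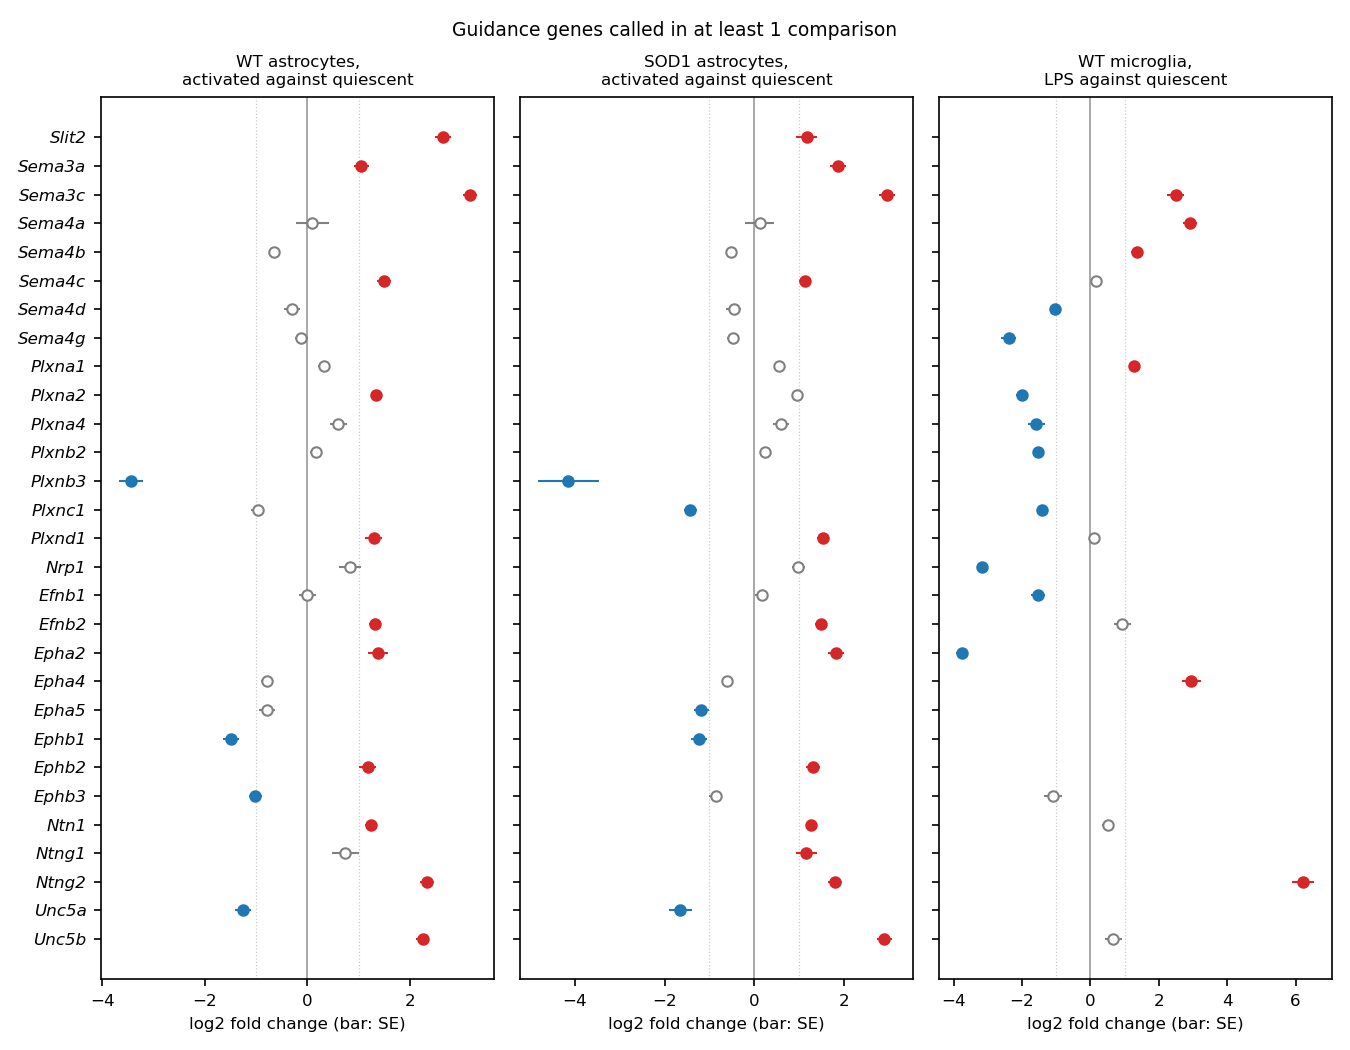
Log2 fold change (horizontal axis, points, with bars for the SE) of the 29 guidance genes called in at least 1 pairwise comparison (vertical axis) for activated against quiescent WT astrocytes, the same in SOD1 astrocytes, and LPS against quiescent WT microglia, 3 libraries a group. Filled red and blue points are called higher and lower, open points were tested and not called, and the dotted lines mark a 2-fold difference. The WT and SOD1 astrocyte columns place their points alike, and the largest value is that of *Ntng2* in microglia at 6.22.

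Among secreted ligands, the class 3 semaphorin *Sema3c* had the largest rise. Its WT libraries held 25.6, 26.2 and 28.8 normalized counts when quiescent and 252, 243 and 248 when activated. SOD1 libraries held 35.3, 29.9 and 23.9 and then 209, 223 and 284. Every activated library lay at more than 5 times any quiescent one of its genotype, with no overlap. *Sema3c* rose by 3.16 (SE 0.14, adjusted p = 3.2e-08) on the log2 scale in WT and by 2.97 (SE 0.18, adjusted p = 1.4e-09) in SOD1. *Slit2*, the secreted ligand of *Robo1* and *Robo2*, went from 37.3, 38.1 and 42.7 to 312, 226 and 221 in WT. In SOD1 it went from 54.6, 34.8 and 31.9 to 94.5, 117 and 64.8. Activated libraries were above quiescent ones in both genotypes, by a wide gap in WT and a narrow one in SOD1, where replicate 1 is the highest quiescent and replicate 3 the lowest activated library. *Slit2* rose by 2.64 (SE 0.16, adjusted p = 3.8e-07) in WT and by 1.17 (SE 0.24, adjusted p = 0.00088) in SOD1. The SOD1 call was lost without quiescent replicate 2 (adjusted p = 0.00384), without activated replicate 1 (0.00766), without activated replicate 2 (0.00994, log2 fold change 0.98) and with no minimum count (0.0029), the adjusted p over 15 alternatives running from 8.99e-05 to 0.00994.

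*Sema3a*, the semaphorin that collapses growth cones through neuropilin-1, held 72.2, 81.4 and 83.2 in quiescent and 139.8, 163 and 191 in activated WT libraries. Its SOD1 values were 95.7, 59.3 and 62.4 and 269.6, 289.6 and 228. No activated library overlapped a quiescent one, and in SOD1 the gap was wider than the spread within either group. *Sema3a* rose by 1.04 (SE 0.15, adjusted p = 0.00018) in WT and 1.87 (SE 0.17, adjusted p = 1.8e-07) in SOD1. The WT call sat at the 2-fold limit. It was lost without quiescent replicate 1 (log2 fold change 0.98), quiescent replicate 2 (adjusted p = 0.00132), activated replicate 2 (0.00145) or activated replicate 3 (0.00208, log2 fold change 0.93), with an adjusted p from 2.06e-06 to 0.00208 over 15 alternatives.

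Of the netrin family, the secreted *Ntn1*, ligand of *Dcc* and the Unc5 receptors, was the most abundant per exon length. WT libraries held 780.4, 802 and 952 normalized counts when quiescent and 1869.6, 1898 and 2171 when activated. In SOD1 the values were 1043, 877 and 758 and 2047, 2069 and 2264. Activated libraries held about 2 times as much as quiescent ones in both genotypes, without overlap. *Ntn1* rose by 1.23 (SE 0.10, adjusted p = 3.4e-06) in WT and 1.26 (SE 0.11, adjusted p = 1.2e-07) in SOD1. The membrane-anchored netrin-G ligand *Ntng2*, which binds no *Dcc* or Unc5 receptor, went from 48.9, 44.6 and 45.9 to 272, 211 and 234 in WT. In SOD1 it went from 43.0, 41.5 and 50.4 to 179, 148 and 147. The quiescent libraries of each genotype lay within a few counts of each other, far below the activated ones. *Ntng2* rose by 2.33 (SE 0.14, adjusted p = 3e-07) in WT and 1.79 (SE 0.16, adjusted p = 1.1e-07) in SOD1.

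*Ntng1*, the paralog of *Ntng2*, was called in SOD1 and not in WT. SOD1 libraries held 24.7, 32.4 and 22.6 quiescent and 47.9, 56.7 and 78.2 activated. WT libraries held 21.0, 31.5 and 41.6 and 57.9, 42.8 and 53.5. Groups did not overlap in either genotype, but in WT the highest quiescent library, replicate 3, nearly reached the lowest activated one. The log2 fold change was 1.16 (SE 0.24, adjusted p = 0.00085) in SOD1 and 0.74 (SE 0.26, adjusted p = 0.045) in WT, and the difference between these responses was 0.42 (unadjusted p = 0.26). With few reads, 17 to 53 in a SOD1 library, *Ntng1* kept its SOD1 call in 8 of 15 alternatives. Of the 7 that lost it, 1 is given with the check of replicate numbers. The other 6 were without quiescent replicate 1 (adjusted p = 0.00232) or 3 (0.00109), without activated replicate 1 (0.00128), 2 (0.00381) or 3 (0.00662), and with no minimum count (0.00318), over a range of 0.000554 to 0.00662.

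Of the membrane-bound ligands, *Sema4c* and *Efnb2* rose in both genotypes. They were 1 of 12 tested class 4 to 7 semaphorins in WT (1 of 11 in SOD1) and 1 of 7 ephrins. Of all tested genes 6% were called higher in WT and 6.74% in SOD1. With 1 call each, these family counts say little about the families. *Sema4c*, a transmembrane semaphorin that binds plexin-B2, went from 72.2, 97.1 and 89.6 to 235, 263 and 234 in WT libraries. In SOD1 it went from 92.8, 88.6 and 98.2 to 229, 188 and 199. The lowest activated library stood far above the highest quiescent one in both genotypes. *Sema4c* rose by 1.50 (SE 0.14, adjusted p = 6.5e-06) in WT and 1.13 (SE 0.13, adjusted p = 2.2e-06) in SOD1. Ephrin-B2, encoded by *Efnb2*, is a transmembrane ligand of EphB receptors and of EphA4. Its WT values were 158, 164 and 211 quiescent and 451, 416 and 451 activated. SOD1 values were 152, 126 and 129 and 320.0, 412 and 420.1, the groups again apart in both genotypes. *Efnb2* rose by 1.31 (SE 0.12, adjusted p = 7.1e-06) in WT and 1.49 (SE 0.13, adjusted p = 8.8e-08) in SOD1.

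Receptors moved in both directions. The largest receptor rise was that of *Unc5b*, which mediates repulsion by netrin-1 and is also known from vessel tips. WT libraries held 69.9, 65.6 and 81.6 normalized counts when quiescent and 358, 320.2 and 359.6 when activated. SOD1 libraries held 51.7, 33.0 and 38.5 and 319, 313 and 295. Activated libraries of a genotype lay close together and far above the quiescent ones. *Unc5b* rose by 2.24 (SE 0.12, adjusted p = 1.8e-07) in WT and 2.90 (SE 0.16, adjusted p = 5.3e-10) in SOD1. *Plxnd1*, a receptor of *Sema3e* and abundant in vessels, went from 335, 378 and 577 to 1020.1, 981 and 1066 in WT. In SOD1 it went from 343, 294 and 222 to 834, 793 and 825. Quiescent WT replicate 3, the library that stands apart, was the highest of the quiescent ones but stayed below all activated libraries. *Plxnd1* rose by 1.29 (SE 0.17, adjusted p = 9.8e-05) in WT and 1.53 (SE 0.13, adjusted p = 6.7e-08) in SOD1. In WT it missed the limit without quiescent replicate 2 (adjusted p = 0.0015), activated replicate 1 (0.00104) or activated replicate 3 (0.00134), within a range of 1.42e-12 to 0.0015 over 15 alternatives.

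The Eph receptor tyrosine kinases *Epha2* and *Ephb2* rose in both genotypes. *Epha2* libraries held 48.9, 53.8 and 88.6 quiescent and 165, 153 and 166 activated in WT. They held 54.6, 64.1 and 38.5 and 174, 194 and 185 in SOD1. Quiescent WT replicate 3 was again the highest of its group, and no groups overlapped. *Epha2* rose by 1.37 (SE 0.20, adjusted p = 0.00026) in WT and 1.83 (SE 0.17, adjusted p = 3.1e-07) in SOD1. *Ephb2* went from 88.5, 134 and 139 to 259, 281 and 262 in WT. In SOD1 it went from 87.5, 94.1 and 63.7 to 178, 206 and 219. Every activated library held more than any quiescent library of its genotype. *Ephb2* rose by 1.17 (SE 0.16, adjusted p = 0.00017) in WT and 1.30 (SE 0.16, adjusted p = 4.2e-06) in SOD1. Both WT calls were near the limit. For *Epha2* the adjusted p was 0.00264 without quiescent replicate 2 and 0.00262, 0.00127 and 0.0029 without activated replicates 1, 2 and 3 (range over 15 alternatives 2.27e-07 to 0.0029). For *Ephb2* the log2 fold change was 0.96 without quiescent replicate 1, and the adjusted p was 0.00153, 0.00129 and 0.0018 without activated replicates 1, 2 and 3 (range 4.61e-09 to 0.0018).

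*Plxna2*, a semaphorin receptor that pairs with neuropilins, was called in WT and missed the fold limit in SOD1. WT libraries held 449.6, 471 and 432 and, activated, 1118, 1093 and 1216. SOD1 libraries held 564, 509 and 559 and 1112, 1098 and 936. In both genotypes all activated libraries were above all quiescent ones, and the SOD1 quiescent libraries started nearer to them. The log2 fold change was 1.34 (SE 0.08, adjusted p = 4.8e-07) in WT and 0.94 (SE 0.10, adjusted p = 6.8e-07) in SOD1. The difference between the 2 responses was -0.39, with an unadjusted p of 0.0058 and an adjusted p of 0.35.

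*Plxnb3*, a receptor of *Sema5a* known from oligodendrocyte lineage cells, had the largest fall. WT libraries went from 119, 151 and 101 to 8.68, 13.6 and 9.49. SOD1 libraries went from 89.4, 84.3 and 102 to 16.4, 7.24 and 0, the activated libraries with 0 to 13 reads. All activated libraries were near the bottom of what can be measured and none approached a quiescent one. The activated SOD1 mean of 7.87 lies under the minimum of 10, which *Plxnb3* passed there only through its quiescent libraries. With at least 10 required in every library *Plxnb3* was not tested in either genotype. *Plxnb3* had a log2 fold change of -3.43 (SE 0.24, adjusted p = 9.3e-07) in WT and -4.15 (SE 0.68, adjusted p = 0.00012) in SOD1. The size of the SOD1 fall depends on the library with 0 reads, activated replicate 3. Without it the log2 fold change was -2.95, without activated replicate 1 it was -5.01, and over 14 alternatives it ran from -5.01 to -2.95, with an adjusted p from 5.53e-15 to 0.000596. *Unc5a*, a repulsive netrin receptor like *Unc5b*, moved the other way from that relative. WT libraries held 93.2, 93.2 and 100.3 and then 38.6, 36.4 and 43.1. SOD1 libraries held 93.8, 83.1 and 110.2 and 17.6, 41.0 and 35.8, with activated replicate 1 lowest. No groups overlapped, and *Unc5a* had a log2 fold change of -1.26 (SE 0.16, adjusted p = 7.3e-05) in WT and -1.65 (SE 0.26, adjusted p = 7.7e-05) in SOD1.

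*Ephb1*, an EphB kinase, fell in both genotypes and its relative *Ephb3* in WT. *Ephb1* went from 126, 118 and 136 to 38.6, 46.4 and 48.3 in WT. In SOD1 it went from 111, 102 and 102 to 41.6, 38.6 and 53.6. Activated libraries lay far below quiescent ones in both genotypes. *Ephb1* had a log2 fold change of -1.49 (SE 0.15, adjusted p = 1.7e-05) in WT and -1.23 (SE 0.17, adjusted p = 2.3e-05) in SOD1. *Ephb3* went from 163, 202 and 182 to 89.7, 83.4 and 94.9 in WT. In SOD1 the values were 155, 153 and 137 and 94.5, 70.0 and 80.4, lower in all activated libraries too. Its log2 fold change was -1.02 (SE 0.13, adjusted p = 8.2e-05) in WT and -0.86 (SE 0.15, adjusted p = 0.00016) in SOD1, a difference in response of 0.16 (unadjusted p = 0.42). The WT call sat at the fold limit, with -0.94 without quiescent replicate 2, -0.97 without activated replicate 2 and -0.99 with a pseudocount of 5 (range over 15 alternatives -1.10 to -0.94).

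*Plxnc1* and *Epha5* were called lower in SOD1 astrocytes only, where only means that the WT fold or adjusted p missed the limits. *Plxnc1*, the receptor of *Sema7a*, held 177, 189 and 171 in quiescent and 52.9, 76.0 and 71.5 in activated SOD1 libraries. WT libraries held 161, 165 and 184 and 83.9, 86.3 and 88.0. All activated libraries were lower in both genotypes. Its log2 fold change was -1.42 (SE 0.15, adjusted p = 1.3e-06) in SOD1 and -0.97 (SE 0.12, adjusted p = 7.1e-05) in WT, and the responses differed by -0.45 (unadjusted p = 0.033, adjusted p = 0.55). The kinase *Epha5* held 165, 146 and 138 and 65.5, 53.1 and 80.4 in SOD1. In WT it held 116, 154 and 123 and 70.4, 72.7 and 81.9. The groups were apart in both genotypes. *Epha5* had a log2 fold change of -1.18 (SE 0.16, adjusted p = 2.1e-05) in SOD1 and -0.79 (SE 0.15, adjusted p = 0.0015) in WT, a difference of -0.39 (unadjusted p = 0.11).

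The WT and SOD1 responses share no library. Of the members called, 14 were called in both, all in the same direction, which is 87.5% of the WT calls and 82.4% of the SOD1 calls. Over all genes 1220 were shared, 85.7% of the WT and 76% of the SOD1 calls. Across the 56 members tested in both, Pearson's r of the log2 fold changes was 0.928, and across all 12162 genes 0.917. These are descriptions across genes, which are not independent replicates.

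Markers of other cell types moved with activation. The 10 oligodendrocyte lineage markers summed to 14788, 14617 and 14680.4 in quiescent and 5486, 5609.7 and 5461 in activated WT libraries, with *Olig1* the most abundant. Of the 9 tested, 4 fell: *Olig1* (-1.74 on the log2 scale), *Olig2* (-1.28), *Gpr17* (-3.86) and *Cnp* (-1.29). SOD1 sums were 16415, 14653 and 14615 and 5190.5, 5089 and 5429.9, with 3 of 9 lower (*Olig1*, *Olig2* and *Gpr17*). In each genotype 2 of the 9 had a positive log2 fold change, with a median over the 9 of -0.60 in WT and -0.44 in SOD1. None of the list was at 0 in all libraries. *Plxnb3* is itself known from this lineage. The part of these cells in the falls of *Plxnb3*, *Ephb1*, *Unc5a* and the others was not tested. Of 10 astrocyte markers, 2 fell in WT (*Aldoc* -1.94, *Hepacam* -1.15), while in SOD1 *Gfap* rose (1.94) and *Aldoc* fell (-1.26). A positive log2 fold change was found for 1 of the 10 in WT (median -0.74) and for 3 in SOD1 (median -0.19). Their sums were 26593, 28994 and 34649.9 quiescent and 24819, 25151 and 25921 activated in WT.

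Of the neuron markers, 7 were tested in WT, where *Tubb3* (1.03) and *Nefl* (2.95) rose and *Map2*, the most abundant, fell (-1.15). Of the 7, 6 had a positive log2 fold change, with a median of 0.97, while the sums, which *Map2* dominates, were 4533, 4760.4 and 3803 quiescent and 2077, 2276 and 2339 activated. In SOD1, 6 were tested, with *Tubb3* higher and *Map2* lower. Among 8 endothelial markers *Flt1* alone was tested and it rose, by 4.02 in WT and 4.41 in SOD1. It made up nearly all of the sum, 51.2, 51.2 and 72.0 quiescent and 675, 719 and 767 activated in WT, while the endothelial markers *Cldn5* and *Tie1* were at 0. Of 7 tested pericyte and fibroblast markers in WT, *Dcn* (4.14) and *Lum* (5.42) rose and *Acta2* (-1.16) and *Tagln* (-1.13) fell, with sums of 801, 1058 and 1176 and 849, 961 and 809 led by *Cspg4* and with *Kcnj8* at 0. In SOD1, 3 of 6 rose (*Pdgfrb*, *Dcn* and *Lum*) and 0 fell. None of 8 tested microglia markers was called in either genotype. In WT 4 of the 8 had a positive log2 fold change, with sums of 559, 773 and 1056 quiescent and 693, 1120.4 and 632 activated. In SOD1 all 8 had a negative one, with a median of -0.68 and sums of 1230.5, 1222 and 804 and 831, 558 and 632, led by *Csf1r*. Their part in the guidance gene results was not tested.

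Partners of the guidance pathways were looked at in 2 further lists, co-receptors with ligand partners and cytoplasmic effectors. In WT astrocytes 3 of 15 tested co-receptors and partners rose and 2 fell, and of 36 effectors 3 rose and 1 fell. Over all genes 11.5% were called (higher 6%, lower 5.54%), and the effectors are close to that share. *Pgf*, a ligand of *Flt1* and neuropilin-1, had the largest rise, from 2.33, 10.5 and 6.94 to 143, 148 and 173 normalized counts (log2 fold change 4.53). The receptor kinase *Met*, a plexin-B partner, rose by 3.06, the small GTPase *Rnd1* by 2.55, *Rras*, a GTPase that plexins switch off, by 2.04, and the cell adhesion partner *Chl1* by 1.95. The falls were the netrin antagonist *Draxin* (-2.44), the netrin receptor *Dscam* (-1.32) and the Rac regulator *Chn2* (-1.20). In SOD1 astrocytes 3 of 15 partners rose and 3 fell, and 3 of 36 effectors rose and 2 fell. All genes gave 13.1% called (higher 6.74%, lower 6.36%), and the effectors are again close to that share. The rises were *Pgf* (4.51), *Met* (3.14), *Rnd1* (2.69), *Rras* (2.11) and *Rnd3* (1.60) ahead of *Chl1*. The falls were *Draxin* (-3.19), *Dscam* (-1.70), *Chn2* (-1.39), *Dpysl5* (-1.21) and *Cd72* (-1.04). Median log2 fold changes of the lists were close to 0, at -0.01 and -0.11 in WT and 0.03 and -0.02 in SOD1.

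The next comparison asks how WT microglia respond to LPS. Of the semaphorin receptors, 4 of 8 tested plexins, with the abundant *Plxnb2* among them, and the co-receptor *Nrp1*, 1 of 2 neuropilins, fell, together with the semaphorin *Sema4d*, and *Epha2* fell over 10-fold. *Ntng2* rose from near 0 to over 400 counts, and *Sema4a*, *Sema3c*, *Epha4*, *Sema4b* and *Plxna1* rose. Of 28 tested members 15 were called (6 higher, 9 lower), where 20.8% of all 10866 tested genes were called (higher 10.2%, lower 10.6%). The members' median log2 fold change was 0.08 beside 0.00 over all genes, and 22 (78.6%) had an unadjusted p under 0.05, against 61.6% of all genes. WT LPS replicate 1 stands apart from its group. Without it 14 members were called, all of them among the 15. *Sema4d* missed the fold limit there, at -0.93.

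*Ntng2* was the largest riser among ligands. Its quiescent libraries held 2.54, 6.31 and 9.08 normalized counts, 3 to 12 reads, and its LPS libraries 421, 516 and 495. All LPS libraries lay far above a near-empty quiescent group. *Ntng2* rose by 6.22 (SE 0.32, adjusted p = 6.3e-08). With so few quiescent reads its size is loose, and over 14 alternatives the log2 fold change ran from 5.50 to 6.55. Its quiescent mean of 5.98 lies under the minimum of 10, which *Ntng2* passed only through its LPS libraries. With at least 10 required in every library it was not tested. The transmembrane semaphorin *Sema4a*, known for co-stimulating T cells, went from 24.9, 14.7 and 15.9 to 139, 139 and 146. Its LPS libraries were nearly equal and far above the quiescent ones. *Sema4a* rose by 2.90 (SE 0.21, adjusted p = 7.5e-07). The secreted *Sema3c* went from 18.8, 12.6 and 25.7 to 94.0, 122 and 109. No library overlapped, and *Sema3c* rose by 2.49 (SE 0.25, adjusted p = 1e-05). *Sema4b*, a class 4 relative, went from 66.0, 54.7 and 78.0 to 194, 157 and 160.2, its groups apart. *Sema4b* rose by 1.36 (SE 0.16, adjusted p = 3.6e-05). Of receptors, the kinase *Epha4* went from 15.7, 10.5 and 22.7 to 94.7, 144 and 151, where LPS replicate 1 is the lowest of its group and still well above all quiescent libraries. *Epha4* rose by 2.95 (SE 0.28, adjusted p = 7.3e-06). *Plxna1*, a semaphorin receptor also known from dendritic cells, went from 959.6, 873 and 928 to 1691, 2509 and 2565. LPS replicate 1 was again lowest, without overlap. *Plxna1* rose by 1.27 (SE 0.14, adjusted p = 3e-05).

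*Nrp1*, the co-receptor of class 3 semaphorins and VEGF, fell in every LPS library. Quiescent libraries held 2027, 2179.5 and 2040.5 and LPS libraries 207, 236 and 254. The groups were about 9-fold apart with little spread in either. *Nrp1* had a log2 fold change of -3.16 (SE 0.10, adjusted p = 1.3e-09). *Epha2* went from 419, 335 and 379 to 23.5, 24.6 and 33.9, with all LPS libraries near the same low value. *Epha2* had a log2 fold change of -3.75 (SE 0.17, adjusted p = 1.9e-08). The class 4 semaphorin *Sema4g* went from 112, 86.3 and 108 to 23.5, 14.8 and 18.2, also without overlap. *Sema4g* had a log2 fold change of -2.39 (SE 0.21, adjusted p = 4.1e-06). *Sema4d*, the ligand of plexin-B1 and *Cd72*, went from 3709, 3528 and 3572 to 1484, 2007 and 1776. LPS replicate 1 was the lowest of its group, and all LPS libraries were below the quiescent ones. *Sema4d* had a log2 fold change of -1.05 (SE 0.11, adjusted p = 1.3e-05), with an adjusted p of 2.78e-15 to 0.000201 over 15 alternatives, and missed the fold limit without that library (-0.93).

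The plexins *Plxnb2*, *Plxna2*, *Plxnc1* and *Plxna4* fell as well. *Plxnb2* went from 6457, 6738 and 6534 to 2042, 2413 and 2436. It stayed the most abundant plexin transcript per length in LPS libraries, with an RPKM of 57.2 ± 4.57 against 40.8 ± 8.23 for *Plxna1*. *Plxnb2* had a log2 fold change of -1.52 (SE 0.09, adjusted p = 1.4e-07). *Plxna2* went from 190.3, 149 and 179 to 36.0, 39.3 and 53.4, its groups wide apart. *Plxna2* had a log2 fold change of -2.00 (SE 0.18, adjusted p = 4e-06). *Plxnc1* went from 598, 608 and 593 to 166, 279 and 247, with LPS replicate 1 the lowest library. *Plxnc1* had a log2 fold change of -1.41 (SE 0.17, adjusted p = 3.7e-05). *Plxna4*, a receptor of *Sema3a* and class 6 semaphorins, went from 213, 225 and 190.0 to 42.6, 92.2 and 83.3. LPS replicate 1 was lowest here too, and no library overlapped. *Plxna4* had a log2 fold change of -1.58 (SE 0.25, adjusted p = 3e-04). Its call was lost without quiescent replicate 1 (adjusted p = 0.00217) or 2 (0.00317), in a range of 1.37e-10 to 0.00317 over 15 alternatives. The ephrin *Efnb1* went from 86.3, 82.0 and 63.6 to 22.0, 24.6 and 32.6, apart in all libraries. *Efnb1* had a log2 fold change of -1.52 (SE 0.21, adjusted p = 0.00011). The same 2 libraries decide its call, with adjusted p of 0.00134 and 0.00111 without quiescent replicates 1 and 2 (range 2.41e-07 to 0.00134).

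The WT astrocyte and WT microglia comparisons share no library. Of the 28 members tested in both, *Ntng2* and *Sema3c* rose in both, *Epha2* and *Plxna2* rose in astrocytes and fell in microglia, and 0 fell in both. That is 7.14% higher in both and 7.14% higher in astrocytes and lower in microglia. Over all 10262 genes tested in both the shares were 2.01% and 0.546%, with 2.18% lower in both. With 2 genes in each, these member shares are small counts. The stimuli differ, and whether the responses of the 2 cell types differ was not tested.

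Microglia markers moved with LPS. Their sum went from 41674, 45368 and 42339 normalized counts to 17535, 18662 and 18378, led by *Csf1r* throughout, and 6 of 9 fell (*Cx3cr1*, *Csf1r*, *P2ry12*, *Tmem119*, *C1qa* and *Trem2*), with *P2ry12* at -3.81 and *Csf1r* at -1.55 on the log2 scale. None was at 0 in all libraries. Of 10 astrocyte markers *Slc1a2* (2.28) and *Gja1* (2.72) rose, the sums being 969, 892 and 969 and 1312, 1059.6 and 1527, led by *Gfap*. Only 5 of these 10 had a positive log2 fold change, with a median of -0.003. Of 5 tested oligodendrocyte lineage markers *Cspg4* (-4.01) and *Mbp* (-2.21) fell, with sums of 6936, 7361 and 7279 and 834, 864 and 848 that are mostly *Cspg4*. A positive log2 fold change was found for 3 of these 5, with a median of 0.10. Of 7 tested pericyte and fibroblast markers, *Cspg4* fell and *Dcn* rose, with sums of 6416, 6858 and 6753 and 657, 636 and 690.1, again mostly *Cspg4*, and *Kcnj8* at 0. Of 4 tested endothelial markers *Pecam1* (4.17) and *Kdr* (1.01) rose and *Flt1* (-3.47) and *Vwf* (-1.17) fell, with sums of 431, 509 and 494 and 306, 406 and 349 and *Cldn5*, *Tek* and *Tie1* at 0. The 1 tested neuron marker, *Map2*, was not called, and the neuron sum was 99.0, 86.3 and 90.8 quiescent and 80.0, 62.7 and 92.5 with LPS. The part of these shifts in the guidance gene results was not tested.

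Of the pathway partners in microglia, 5 of 15 co-receptors and ligand partners rose and 2 fell. Of 29 tested effectors 2 rose and 8 fell. Over all genes 20.8% were called (higher 10.2%, lower 10.6%). *Draxin* went from 2.03, 2.10 and 1.51 to 68.3, 75.0 and 70.3 normalized counts, the opposite of its fall in astrocytes. The largest rises were *Met* (4.88), *Draxin* (4.65), the Unc5 and Robo partner *Flrt3* (4.36), *Vegfa* (3.74), which competes with semaphorins for neuropilin-1, and *Rnd1* (3.32). The largest falls were *Chn2* (-4.05), the flavoprotein *Mical1* (-2.67) that acts below plexin-A receptors, the kinase *Pak1* (-2.10), the Rac activator *Tiam1* (-2.01) and *L1cam* (-1.86), a partner of neuropilin-1. The median log2 fold change was 0.52 over the partners and -0.38 over the effectors.

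The remaining comparisons ask whether the genotype changes these genes. In quiescent astrocytes no guidance gene passed the test. With limma 0 of 57 tested members were called, as were 0 of all 12271 genes (0%). DESeq2 called 0 members and 6 of all genes, and edgeR 0 members and 0 of all genes. An unadjusted p under 0.05 was reached by 5 members (8.77%, all genes 8.7%), and with each library left out by 4 to 7 (all genes 4.1% to 12.5%). The members' median log2 difference, SOD1 minus WT, was -0.06, beside 0.00 over all genes. Without both libraries that stand apart, a setting chosen after seeing the data, 0 were called and 5 of 57 reached an unadjusted p under 0.05 (all genes 11.3%). The lowest p values were those of the kinase *Epha7*, *Plxna2* and *Unc5b*. *Epha7* held 31.9, 21.9 and 22.1 normalized counts in WT and 58.7, 54.6 and 40.0 in SOD1. *Plxna2* held 474, 491 and 448 and 617, 562 and 624. *Unc5b* held 73.7, 68.3 and 84.6 and 56.6, 36.4 and 43.0. In these 3 genes the genotypes did not overlap, SOD1 being the higher for *Epha7* and *Plxna2* and the lower for *Unc5b*, but the log2 differences of 0.99 (SE 0.25, adjusted p = 0.32), 0.35 (SE 0.10, adjusted p = 0.35) and -0.74 (SE 0.20, adjusted p = 0.37) missed the limits. Picking them by p favours separated libraries, and the share of all genes with separated libraries was not counted. Other tested members were also apart, *Plxnc1* higher in SOD1 and *Dcc*, *Efnb2*, *Ephb1*, *Ephb3*, *Ntn3*, *Sema3d* and *Slit1* lower. Without the share over all genes, this list only describes the libraries and is no result about the members. All 8 tested microglia markers had a positive difference here, with none called, and summed to 589, 805 and 1095 in WT and 1346, 1349 and 898 in SOD1, led by *Csf1r*. Astrocyte markers had a positive difference in 2 of 10 (median -0.27), and pericyte and fibroblast markers in 1 of 5 (-0.54). For oligodendrocyte lineage markers it was 4 of 9 (-0.12), for neuron markers 3 of 6 (-0.17), and the 1 tested endothelial marker was lower (-0.70). None of these was called. The part of these cell types in the differences between quiescent genotypes was not tested.

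In activated astrocytes *Slit2* was lower in SOD1, the only guidance gene called between genotypes. WT libraries held 269, 195 and 189 normalized counts and SOD1 libraries 86.6, 107 and 59.0. Each SOD1 library was below each WT one, and the lowest WT value was well above the highest SOD1 value. The log2 difference was -1.38 (SE 0.17, adjusted p = 1.3e-05), and the call held in 15 of 15 alternatives, with an adjusted p from 1.79e-12 to 0.000348. These libraries held 256 to 324 *Slit2* reads in WT and 29 to 97 in SOD1. Depth went with genotype here, at 5047999 to 6768201 reads in WT and 2135439 to 3929272 in SOD1, and its part was not tested. The count was 1 of 57 tested members (0 higher, 1 lower), beside 78 of 12098 genes (0.645%). An unadjusted p under 0.05 was reached by 19 members (33.3%, all genes 20.4%), and the median difference was -0.05 beside -0.00. At an adjusted p under 0.05 with no fold limit 9 members passed, where 7.27% of all genes did. Chosen after their values were seen, these were *Slit2*, *Sema5b*, *Ntng2*, *Plxnd1* and *Ephb2*, lower in SOD1, and *Sema3a*, *Sema6d*, *Sema6a* and *Ntn4*, higher. *Sema3a* held 120.4, 141 and 164 in WT and 247, 264 and 208 in SOD1. SOD1 libraries were all higher, and the log2 difference was 0.76 (SE 0.12, adjusted p = 0.00023), under the 2-fold limit. The other 7 had log2 differences between -0.50 (*Ntng2*) and 0.35 (*Sema6d*).

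Of the marker lists, *Dcx*, a gene of young neurons, was the 1 marker called in this comparison. It held 105, 86.2 and 83.5 in WT and 45.1, 41.8 and 36.6 in SOD1, all SOD1 libraries being lower, with a log2 difference of -1.13 (SE 0.16, adjusted p = 9e-05). The 10 neuron markers, of which 7 were tested and 6 were lower in SOD1, had a median log2 difference of -0.71 and summed to 1789, 1965 and 2005 and 1757, 1827 and 1912, sums that *Map2* dominates. The oligodendrocyte lineage sums were 4727, 4842 and 4681 and 4759, 4643 and 4948, and the astrocyte sums 21382, 21708 and 22219.7 and 22188, 22334 and 22801. The part of neuronal cells in the *Slit2* difference was not tested. No pathway partner or effector was called between genotypes in quiescent or activated astrocytes or in LPS microglia.

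**Figure D3:**
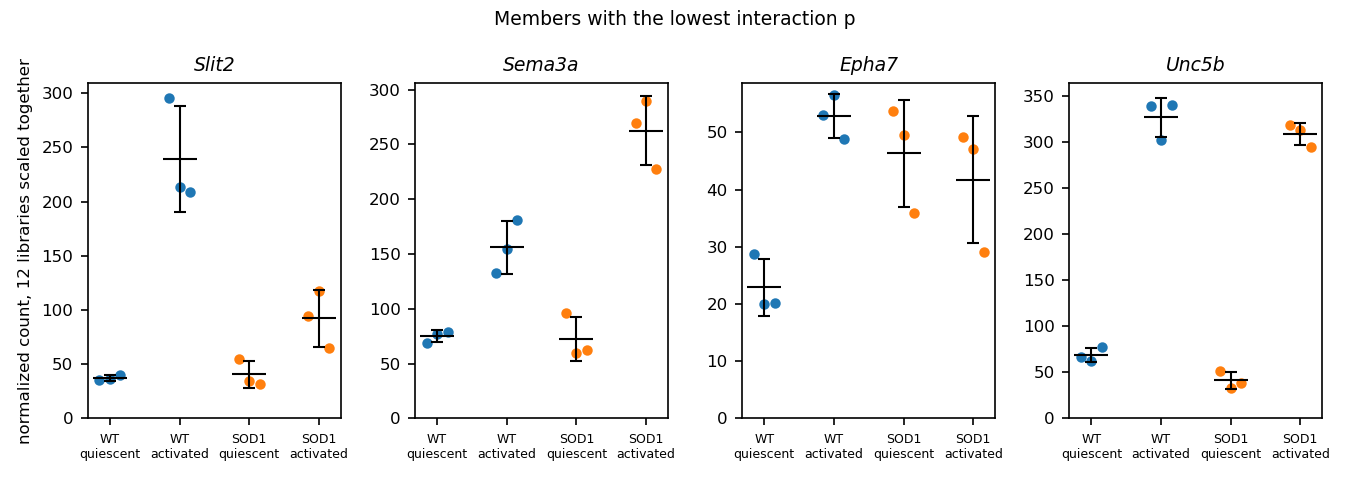
Normalized counts (vertical axis, 12 astrocyte libraries scaled together) of *Slit2*, *Sema3a*, *Epha7* and *Unc5b* in quiescent and activated WT and SOD1 astrocytes (horizontal axis), 1 point per library with the mean and SD bars of 3 libraries. Activated *Slit2* lies at 296, 214 and 209 in WT and 94.5, 117 and 64.8 in SOD1, and *Sema3a* at 132, 154 and 181 in WT and 269.6, 289.6 and 228 in SOD1. By limma no difference in response passed for these genes.

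Whether the response to the 3 factors differs between genotypes was tested as an interaction over the 12 astrocyte libraries scaled together, the same libraries as in the comparisons above. By limma 0 of 59 members passed an adjusted p of 0.05, where 34 of 12269 genes did (0.277%). An unadjusted p under 0.05 was reached by 11 members (18.6%, all genes 8.3%), and with each library left out by 7 to 14 (all genes 6.02% to 12%). DESeq2 called 2, *Slit2* and *Epha7*, among 67 of all genes, and edgeR 0 among 33. The median interaction was 0.03 beside 0.00 over all genes. On the joint scale *Slit2* held 35.3, 36.1 and 40.4 quiescent and 296, 214 and 209 activated in WT. It held 54.6, 34.8 and 31.9 and 94.5, 117 and 64.8 in SOD1. Quiescent libraries of the genotypes overlapped and activated ones did not. The estimated WT rise was the larger, an interaction of -1.47 (SE 0.32, adjusted p = 0.074), with an adjusted p of 0.0067 by DESeq2 and 0.0537 by edgeR. *Epha7* held 28.7, 19.9 and 20.2 quiescent and 53.0, 56.6 and 48.9 activated in WT. It held 53.7, 49.5 and 35.8 and 49.1, 47.1 and 29.0 in SOD1. In WT all activated libraries were above the quiescent ones, whereas in SOD1 the groups overlapped. The interaction was -1.35 (SE 0.33, adjusted p = 0.14), with 0.0567 by edgeR and 0.05, just inside the limit, by DESeq2. *Sema3a* had an interaction of 0.83 (SE 0.24, adjusted p = 0.28) in the direction of a larger SOD1 rise.

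Single libraries decide these interaction calls. Without quiescent WT replicate 1 *Epha7* passed (adjusted p = 0.0478), without quiescent WT replicate 3 *Slit2* passed (0.0458), and without quiescent SOD1 replicate 1 *Sema3a* passed (0.0389), each as the 1 member called in its setting. Over all genes these settings called 68, 51 and 46, against 34 with all libraries, so calls were more frequent there in general. With both libraries that stand apart left out, a setting chosen after seeing the data, 3 of 58 members passed, and 97 of all 12273 genes did. They were *Sema3a* (interaction 1.01, adjusted p = 0.0239), *Slit2* (-1.29, 0.0425) and *Unc5b* (0.75, 0.045), and 12 of 58 had an unadjusted p under 0.05 (all genes 12.4%). *Unc5b*, named for this setting after its values were seen, had an interaction of 0.66 (SE 0.21, adjusted p = 0.35) with all libraries.

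In LPS-treated microglia no guidance gene passed between genotypes. By limma 0 of 28 tested members were called, as were 0 of 10679 genes (0%). DESeq2 called 0 members and 2 of all genes, and edgeR 0 members and 0 of all genes. An unadjusted p under 0.05 was reached by 7 members (25%, all genes 8.71%). The median log2 difference was 0.10 beside 0.01. *Sema4a* held 138, 138 and 146 normalized counts in WT and 229, 233 and 215 in SOD1. *Sema3c* held 93.3, 121 and 109 and 203, 174 and 142. *Plxnd1* held 672, 808 and 824 and 1003, 1029 and 1247. All SOD1 libraries were above all WT libraries in these 3 genes, those with the lowest p, but the differences of 0.68 (SE 0.11, adjusted p = 0.28), 0.67 (SE 0.17, adjusted p = 0.57) and 0.51 (SE 0.13, adjusted p = 0.57) missed the limits. Here too the choice by p favours separated libraries, and their share over all genes was not counted. Of the other tested members, *Nrp1*, *Nrp2* and *Plxna2* were also apart and higher in SOD1, and *Efnb2* and *Ephb3* apart and lower. With that share unknown, these separations too only describe the libraries. Without SOD1 replicate 3, which stands apart, 5 of 29 members had an unadjusted p under 0.05 (all genes 5.45%) and 0 were called. Without both libraries that stand apart, chosen after seeing the data, it was 6 of 29 (all genes 15.2%) and again 0 called. The lowest adjusted p was then 0.000301, for *Nrp2*, named after its values were seen, at a log2 difference of 0.41, where all libraries gave 0.74 (SE 0.19, adjusted p = 0.57). All 9 microglia markers had a positive difference, with 0 called. They summed to 17412, 18511 and 18379.5 in WT and 20741, 19643 and 28080.2 in SOD1, led by *Csf1r* and highest in SOD1 replicate 3. Astrocyte markers had a positive difference in 3 of 10 (median -0.19), and oligodendrocyte lineage markers in 2 of 5 (-0.10). For pericyte and fibroblast markers it was 3 of 6 (-0.11), for endothelial markers 2 of 4 (-0.04), and the 1 tested neuron marker was higher (0.23). None of these was called. The part of these cell types in the differences between LPS-treated genotypes was not tested.

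Members that were called in no comparison include abundant ones, given here as RPKM (mean ± SD, n = 3) in quiescent WT astrocytes and then in quiescent WT microglia. Among Slits, *Slit1* was at 0.838 ± 0.0712 and 0.0721 ± 0.0244, and *Slit3* stayed under the minimum. The Robo receptors that bind *Slit2* were present in astrocytes, *Robo2* at 6.96 ± 0.433 and *Robo1* at 4.50 ± 0.252, and near 0 in microglia (0.224 ± 0.0516 and 0.138 ± 0.0615). The class 3 semaphorins *Sema3f* (0.732 ± 0.0369 and 0.401 ± 0.356) and *Sema3d* (0.392 ± 0.0554 and 0.0328 ± 0.0299) were low in both cell types. Of the class 6 semaphorins, transmembrane ligands of plexin-A receptors, the 2 most abundant in astrocytes were *Sema6d* at 31.1 ± 1.06 and *Sema6a* at 27.5 ± 1.87, both under an RPKM of 1 in microglia (0.708 ± 0.0464 and 0.331 ± 0.0956). *Nrp2*, the second neuropilin, was at 2.49 ± 0.459 and 76.6 ± 5.32.

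Of the plexins called nowhere, *Plxnb1*, the receptor of *Sema4d*, was at 25.0 ± 2.06 and 0.421 ± 0.0715 and *Plxna3* at 8.23 ± 0.853 and 0.312 ± 0.193. Ephrins *Efna2* (6.91 ± 0.666 and 0.215 ± 0.192) and *Efnb3* (2.77 ± 0.381 and 0.0968 ± 0.0844) and the Eph receptors *Ephb4* (7.76 ± 0.561 and 0.145 ± 0.0484) and *Ephb6* (4.02 ± 0.587 and 0.043 ± 0.0391), the latter without kinase activity, had little signal in the microglia libraries. The secreted netrin *Ntn4* was at 16.9 ± 1.20 and 0.375 ± 0.196 and *Ntn3* at 1.52 ± 0.0554 and 0.178 ± 0.0805. The netrin receptor *Dcc* was low in astrocytes (0.631 ± 0.0365) and almost without reads in microglia (0.0171 ± 0.0219). *Unc50*, which only shares letters with the family, was at 11.6 ± 2.05 and 9.67 ± 0.943.

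Promoters of the members that moved were searched, because the stimuli used are known to activate NF-κB and AP-1. A window of 300 bases, 250 before to 50 after the start, was taken from RefSeq for 63 of the 74 members, 26 of the 29 called among them (GRCm38.p6). Searched on both strands were the kappa-B motif and TGANTCA, the AP-1 letters. Of all 32841 windows 8.46% hold kappa-B and 7.81% hold TGANTCA. A gene may have several windows, and counted by gene, as the members are, 9.55% of 27018 genes hold kappa-B and 8.98% hold TGANTCA in at least 1. Among members with a window, kappa-B was in 2 of 11 that rose in WT astrocytes and 2 of 11 in SOD1 (*Ephb2* and *Sema4c* in both), and in 1 of 4 that fell in WT and 1 of 5 in SOD1 (*Ephb1*). In microglia it was in 2 of 5 that rose (*Sema4a* and *Sema4b*) and 0 of 8 that fell. TGANTCA was in 1 of 11 risers of each astrocyte genotype (*Sema4c*), in 0 risers of microglia and in 1 of 8 that fell there (*Sema4d*). Such a match is a description of letters, not a binding site. The windows of 3 members that rose are shown with kappa-B in capitals, all read on the minus strand from 5′ to 3′: *Sema4c* at chr1:36558332-36558631 with the match 186 bases before the start, *Ephb2* at chr4:136835963-136836262 with the match 211 bases before it, and *Sema4a* at chr3:88459052-88459351, 1 of its several starts, with the match 173 bases before it. The *Sema4a* capitals match when read on the opposite strand, those of *Ephb2* as printed, and those of *Sema4c* both ways.
Sema4c: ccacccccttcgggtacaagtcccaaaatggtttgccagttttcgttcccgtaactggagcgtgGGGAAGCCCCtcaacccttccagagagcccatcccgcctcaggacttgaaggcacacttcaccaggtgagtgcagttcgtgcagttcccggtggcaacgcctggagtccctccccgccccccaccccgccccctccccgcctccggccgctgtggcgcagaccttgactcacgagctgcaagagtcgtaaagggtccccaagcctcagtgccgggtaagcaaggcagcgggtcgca
Ephb2: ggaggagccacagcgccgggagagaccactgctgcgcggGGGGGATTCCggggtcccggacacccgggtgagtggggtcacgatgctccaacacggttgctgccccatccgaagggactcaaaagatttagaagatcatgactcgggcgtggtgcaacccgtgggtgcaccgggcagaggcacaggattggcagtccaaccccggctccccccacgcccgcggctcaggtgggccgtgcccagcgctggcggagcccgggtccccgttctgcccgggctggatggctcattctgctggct
Sema4a: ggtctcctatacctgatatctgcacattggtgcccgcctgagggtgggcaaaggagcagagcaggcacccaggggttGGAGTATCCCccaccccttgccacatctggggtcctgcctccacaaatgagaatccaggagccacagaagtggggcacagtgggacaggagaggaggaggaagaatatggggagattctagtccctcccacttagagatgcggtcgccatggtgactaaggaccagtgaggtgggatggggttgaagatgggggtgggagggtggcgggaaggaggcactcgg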

How the data were processed

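Poly(A)-selected, strand-specific paired-end libraries of 21 samples were analysed. The authors used STAR (2.7.3a) with the mm10 genome, RSEM for counts, and DESeq2 in R (3.6.1) to normalize. The deposited signal is a normalized count per gene and library, in tables for pairs of groups, whose fold change and p-value columns were not used. Reads were recovered from the spacing of low values (100% of values whole within 0.05 read). Activated and quiescent SOD1 astrocytes lie in separate tables, so reads of the 12 astrocyte libraries were scaled together for that response and for the interaction.

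In R (4.3.3), limma (3.58.1, trend) was fitted to log2(value + 1) of all genes with a mean of at least 10, with Benjamini-Hochberg adjustment over all genes. Calls needed an adjusted p under 0.001 and more than a 2-fold difference, and for the interaction an adjusted p under 0.05. This log-scale test was chosen as the main one because the deposited values are normalized counts. Recovered reads also allow count models, and DESeq2 (1.42.0) and edgeR (4.0.16) on them were alternatives. The others were pseudocounts of 0.5 and 5, no minimum, at least 10 in every library, TMM, a looser limit, a replicate block and each library left out.

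Every member called in a pairwise comparison is named. Of the others, the 2 with the highest mean in each role are named as levels, in a comparison without calls the 3 with the lowest p, and of pathway genes the 5 largest rises and falls. Members, marker lists and pathway lists were chosen with earlier results of these data known. The microglia list holds 9 of 10 planned markers, as 1 was left out after the results were seen, for a reason other than its values.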

Additional observations from a re-analysis of the deposited data

Results flagged for a closer look

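*Plxnd1*, the receptor of *Sema3e*, went opposite ways between genotypes in the 2 stimulated cell types, and full separation of the libraries in both drew attention to it. In activated astrocytes WT libraries held 879, 847 and 914 normalized counts and SOD1 libraries 765, 723 and 751, all lower, a log2 difference of -0.24 (SE 0.06, adjusted p = 0.024). In LPS-treated microglia WT libraries held 672, 808 and 824 and SOD1 libraries 1003, 1029 and 1247, all higher, a log2 difference of 0.51 (SE 0.13, adjusted p = 0.57). Neither was called by limma. In quiescent astrocytes the log2 difference was -0.49 (SE 0.20, adjusted p = 0.54), with overlapping libraries. The lowest WT and the highest SOD1 microglia value come from the 2 libraries that stand apart, WT replicate 1 and SOD1 replicate 3. The difference between the 2 cell types was not tested, and the tables were normalized separately.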

How the results depend on the processing

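Counts of called members stayed within 1.5 times the reported ones in all 6 pairwise comparisons under every alternative run, and no called gene changed direction. With each library left out in turn there were 12 to 18 calls in WT astrocytes (16 with all), 15 to 18 in SOD1 astrocytes (17), 13 to 15 in WT microglia (15), 1 between activated genotypes and 0 in the other genotype comparisons. Over all genes the same settings called 1087 to 1547 in WT astrocytes (1424 with all) and 1470 to 1615 in SOD1 astrocytes (1606). In WT microglia they called 1991 to 2334 (2263), and between activated genotypes 67 to 81 (78). DESeq2 and edgeR gave 17 calls in WT astrocytes, 17 in SOD1 astrocytes and 15 in WT microglia. The interaction moved, from 0 by limma to 2 by DESeq2, 0 to 1 over single libraries left out, and 3 with both libraries that stand apart left out, which was chosen after seeing the data. The cause was not tested.

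The replicate numbers were not treated as pairs, and correlations over 3 libraries a group cannot decide whether they are. Between same-numbered quiescent WT and SOD1 astrocytes the correlation of deviations was -0.4, 0.0587 and -0.436, while libraries with different numbers reached 0.351 and 0.522. In the other comparisons same-numbered values lay between -0.0718 and 0.0562, and libraries with different numbers reached 0.08. For replicate 1 of the WT astrocyte response the same-numbered value, 0.0562, was above the largest other one, 0.00269. For replicate 1 of the SOD1 astrocyte response it was 0.0226, below 0.0537. A replicate block gave 16 calls in WT astrocytes, 16 in SOD1 astrocytes (*Ntng1* lost), 15 in WT microglia, 0 and 1 between quiescent and activated genotypes, 0 in LPS microglia and 0 for the interaction.

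Depth limits the low genes most: members near 10 normalized counts rest on few reads, and genes under the minimum were not measured well enough to call a difference present or absent. Whether counting used strand bears on the members with an overlapping partner. The separateness of the cultures bears on every p-value, and the mix of cell types in each culture was not resolved for any member.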
